A study of Mus musculus with 16 samples.

Results

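The data described here are the 8 RNA-seq libraries, out of 16 in the series, made from mouse CD4+ T cells after 48 h in culture conditions that favour regulatory T (Treg) cells. They were chosen by their labels alone: 4 libraries carried the Aim2-/- genotype and 4 were wild type (WT), and each genotype was numbered 1 to 4. The remaining 8 libraries, of freshly isolated naive CD4+ T cells (Tn) of the same genotypes, are used below where a Treg value is set beside its naive counterpart. WT mice were C57BL/6, and Aim2-/- mice were a single line on that background, obtained from a commercial supplier and lacking AIM2 in every cell type. Naive spleen cells (CD4+ CD44low CD62Lhigh) of both genotypes were selected with magnetic beads and stimulated with anti-CD3 and anti-CD28 antibodies, recombinant human TGF-beta and recombinant mouse IL-2. The cells were not sorted for FOXP3 after culture, so "Treg" names the culture and not a purified population. The labels do not say whether the cultured libraries came from separate mice, and p-values then measure only the spread between these libraries, which may be technical.

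AIM2 is a cytosolic protein of the PYHIN family that binds double-stranded DNA and, in myeloid cells, recruits ASC (encoded by Pycard) and caspase-1 (Casp1) into an inflammasome that processes IL-1 family cytokines. Stimulation of a naive T cell through its receptor with TGF-beta and IL-2 induces Foxp3, the transcription factor that defines Treg cells, together with the IL-2 receptor alpha chain and CTLA-4, while other cytokines steer the same cell toward other helper fates, such as Th1 through Tbx21 and Th2 through Gata3. The comparison asks which genes Aim2 loss alters early in that process.

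The libraries held 26440016 to 29907020 counts in Aim2-/- and 27060195 to 34533297 in WT. Levels are given as CPM, the count scaled to a common library size with TMM factors, and are not divided by transcript length, so they compare libraries and not genes. The count of 3 taken as the floor corresponded to 0.0869 to 0.1135 CPM, which covers counting error only. The culture had taken effect in every library: Foxp3 was between 279 and 572 CPM, against 1.98 to 4.01 CPM in Tn, and Il2ra was between 1290 and 1510 CPM, against 2.67 to 4.69 CPM. All 16 CD4 T cell markers on a fixed list passed the filter, with a summed level of 3910 to 4640 CPM in Aim2-/- and 3930 to 4480 CPM in WT. The main spread among libraries did not follow genotype alone, and a part of genotype in it was not tested. The first principal component, which held 43.1% of the variance, placed Aim2-/- libraries 3 and 4 and WT library 4 between 27.2 and 37.2 and the other 5 between -30.0 and -7.25. Results are therefore also given over those 5 libraries (Aim2-/- 1 and 2, WT 1, 2 and 3), a choice made after seeing the data. Bulk RNA cannot tell fewer cells of a type from less RNA per cell.

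Few genes differed between Aim2-/- and WT cultures, and most of them lay on chromosome 1 near Aim2 or in a handful of other short segments. Loss of Aim2 and other differences between the Aim2-/- line and WT mice cannot be told apart in this design. Of 13221 genes tested, 29 (0.219%) had an adjusted p under 0.05 in the quasi-likelihood test of edgeR, 17 (0.129%) with more and 12 (0.0908%) with less RNA in Aim2-/-. One gene, Ide, is listed under 2 identifiers with equal counts, which leaves 28 distinct genes. In all 29 the genotypes did not overlap, which was so for 2.23% of the genes tested (1.18% with Aim2-/- higher and 1.05% with it lower). The 29 were picked for a small p in these same libraries, so the lack of overlap is no separate support. Genes under the floor in a genotype, such as Ifi204, Ifi213 and Ifi203-ps, also passed the filter on low counts through the other genotype alone. No gene of the Treg, T helper, cytokine, metabolic or cell cycle lists was among the 29, which says little about lists this short at a share of 0.219%. The changed genes were mostly weakly expressed: 15 had a mean under 10 CPM in both genotypes. A mean above 100 CPM in at least 1 genotype was found for 3 entries (Ide, counted under both identifiers, and Uhmk1). The count rested on all 8 libraries: leaving out 1 library at a time gave from 10 to 17 changed genes, with 13 of the 29 passing in every such fit in which they were tested (both Ide entries, Dynlt1b, Aim2, Ifi204, Ifi213, Ifi203-ps, Mid1, Wdfy1, Rab4a, Efcab7, Tmem181b-ps and Fcgr3), and the 5 libraries on the low side of the first component gave 15. DESeq2 gave 52, which included all 29. An unadjusted p under 0.05 was found for 305 genes (2.31%).

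**Figure D1:**
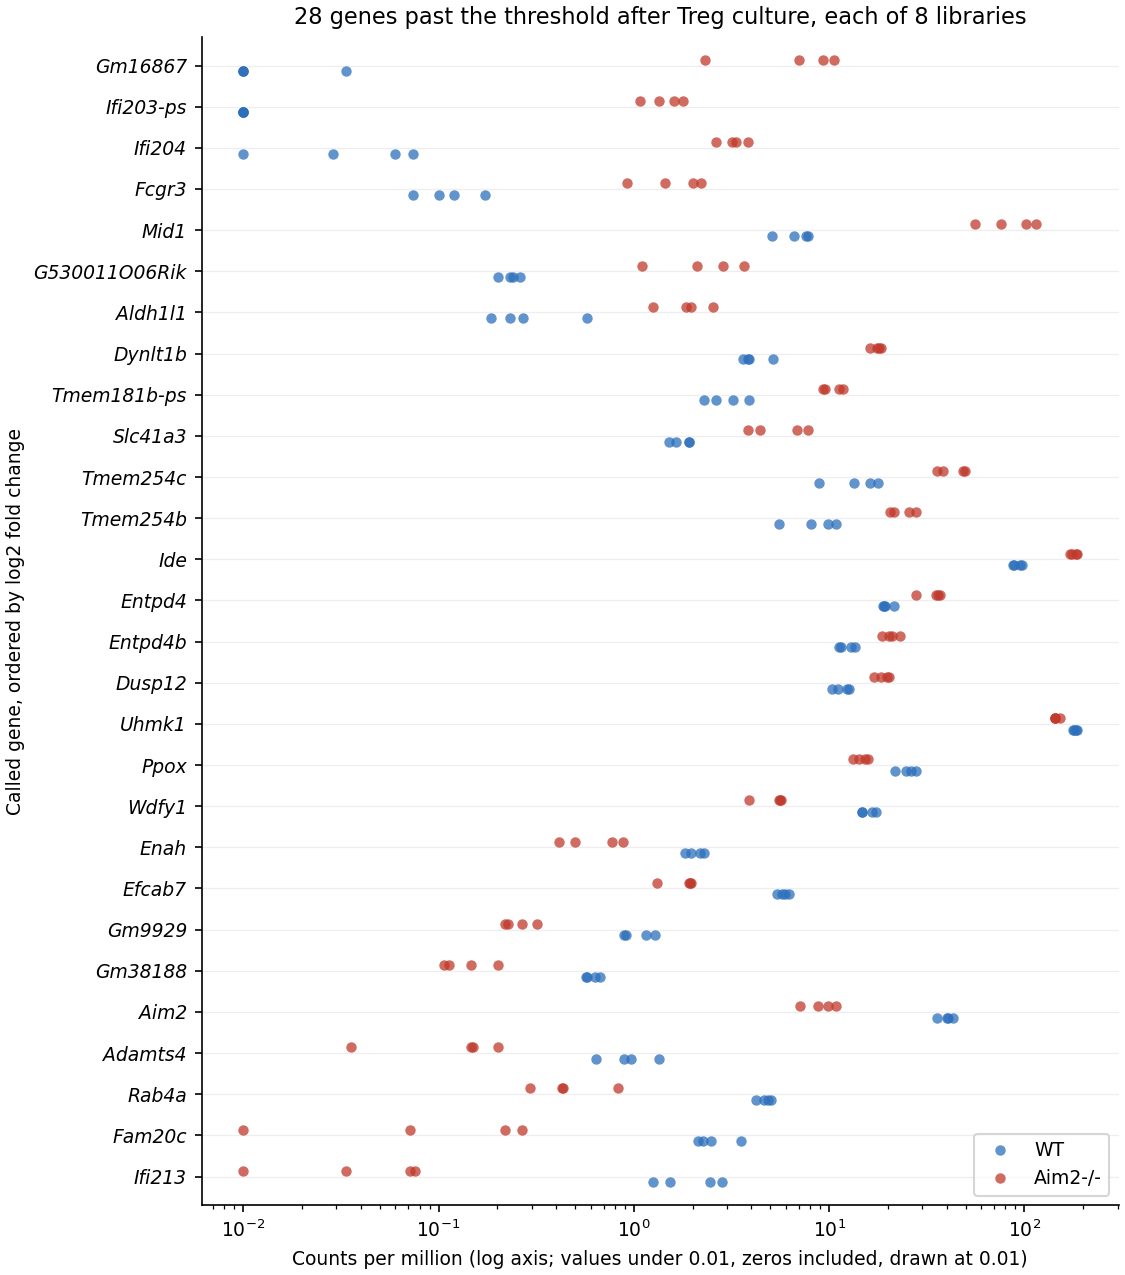
CPM (log axis) of the 28 distinct genes past the threshold in each of the 8 Treg-culture libraries, Aim2-/- in red and WT in blue, ordered by log2 fold change. The colours do not overlap in any row, and 15 genes have a mean below 10 CPM in both genotypes.

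Aim2 itself (ENSMUSG00000037860.15, + strand of chromosome 1 in GRCm38) was 10.9, 9.89, 8.82 and 7.09 CPM in Aim2-/- libraries 1 to 4 and between 35.7 and 43.0 CPM in WT. The genotypes did not overlap and the labels held in every library, but about 9 CPM of signal stayed in the knockout (mean 9.16 ± 1.61 CPM, SD, n = 4). Its log2 fold change was -2.12 (SE 0.13, adjusted p = 0.00013) and passed the threshold under every alternative run. The tables give 1 value per gene, so the exons from which the remaining counts came were not seen.

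The PYHIN genes, which encode interferon-inducible DNA-binding proteins related to AIM2, form a cluster beside Aim2, and their levels differed in both directions. Of 14 listed members present in the tables, 11 passed the filter on low counts and 4 of those passed the test: Aim2 and Ifi213 were lower, and Ifi204 and the pseudogene Ifi203-ps were higher. In 9 of the 11 the genotypes did not overlap, against 2.23% of all genes tested. Of these, 7 had Aim2-/- lower, Aim2 itself included. Several members share transcript sequence, so reads could be divided between them: 19.6% of the 51-base windows of Ifi204, 15.2% of those of Ifi213 and 25.5% of those of Ifi203-ps also occurred in another gene.

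Ifi204, an inducible DNA sensor, was at 3.33, 3.18, 3.86 and 2.65 CPM in Aim2-/- and at 0.0, 0.0288, 0.06 and 0.0742 CPM in WT. Every WT library was under the floor, so the level was at least 33.4-fold higher in Aim2-/- (adjusted p = 0.00019). Ifi203-ps had no count in WT and lay between 1.07 and 1.78 CPM in Aim2-/-, at least 14.9-fold higher (adjusted p = 0.0049). Ifi213 went the other way, with 0.0757, 0.0714, 0.0335 and 0.0 CPM in Aim2-/- against 2.46, 1.53, 2.82 and 1.26 CPM in WT, at least 18.7-fold lower (adjusted p = 0.0031). The 4 Aim2-/- libraries were again all under the floor.

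Other members lay apart without passing the test. Ifi206, the nearest gene to Aim2, was 0.605, 0.357, 0.067 and 0.147 CPM in Aim2-/- and 4.69, 3.69, 2.67 and 1.74 CPM in WT (log2 fold change -3.45, SE 0.54, adjusted p = 0.052). Ifi208 (-2.38, SE 0.53, adjusted p = 0.41), Ifi209 (-1.68, SE 0.43, adjusted p = 0.79) and Mndal (-0.69, SE 0.19, adjusted p = 1.0) were also below WT in each library. Ifi203 overlapped between genotypes, at 22.7 to 33.4 CPM in Aim2-/- and 32.2 to 61.4 CPM in WT. Ifi206 passed the threshold with DESeq2 and in several other fits, and the range of its adjusted p on leaving out 1 library was 0.052 to 0.3.

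Ifi211 stood out by its spread. It was 0.454, 0.25, 0.536 and 0.294 CPM in Aim2-/- and 2.09, 5.77, 1.98 and 25.3 CPM in WT (log2 fold change -4.49, SE 0.96, adjusted p = 0.33). WT library 4, which lay with 2 Aim2-/- libraries on the first component, was far above the others. In Tn the order was opposite, with 5.94 to 9.25 CPM in Aim2-/- and 0.174 to 0.382 CPM in WT.

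Along chromosome 1, the genes that passed the test were counted by distance from Aim2. Within 1 Mb, Aim2 left out, 3 of 15 genes tested passed, all of them PYHIN members, and the genotypes did not overlap in 10 of 15 (66.7%). The 5 genes there outside the family (Pigm, Slamf9, Igsf9, Tagln2 and Dusp23) did not pass. From 1 to 3 Mb the count was 5 of 42 (11.9%), from 3 to 10 Mb 2 of 86 (2.33%), from 10 to 20 Mb 1 of 98 (1.02%) and beyond 20 Mb on the same chromosome 1 of 530 (0.189%). On the other chromosomes 15 of 12331 entries passed (0.122%). From 1 Mb outward the genotypes did not overlap in 40.5%, 6.98%, 10.2% and 1.51% of these bins, and in 1.93% on the other chromosomes. Position relative to the altered locus moved with the result, and its part in each gene's difference was not tested.

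**Figure D2:**
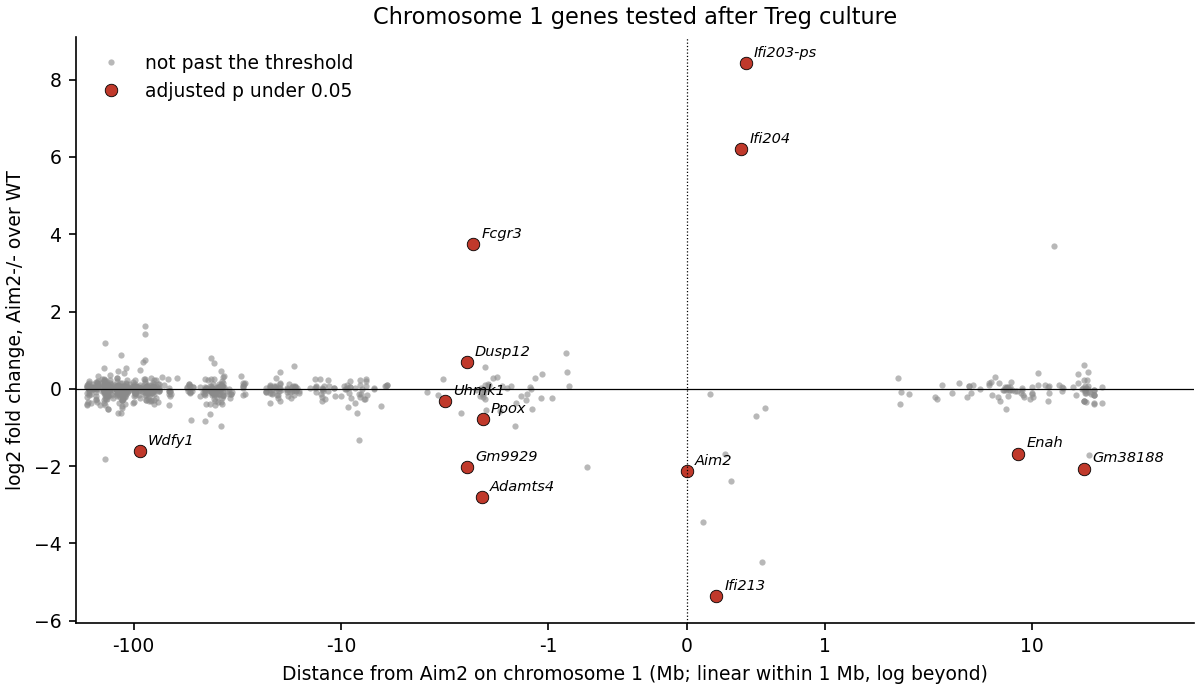
Log2 fold change (Aim2-/- over WT) of the chromosome 1 genes tested, against signed distance from Aim2 in Mb, with the genes past the threshold in red and named. Of the named genes, all but Enah, Gm38188 and Wdfy1 lie within 3.14 Mb of Aim2, and Wdfy1, at 93.6 Mb, lies farthest.

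Between 2.07 and 3.14 Mb from Aim2 lay 5 changed genes that encode unrelated proteins, together with the processed transcript Gm9929. Fcgr3, an activating receptor for the Fc part of IgG, was 1.44, 0.928, 2.21 and 2.02 CPM in Aim2-/- and 0.101, 0.173, 0.12 and 0.0742 CPM in WT (log2 fold change 3.74, SE 0.39, adjusted p = 0.0042). Fcgr3 is a marker of myeloid and NK cells, and 9 of the 25 markers on the myeloid list (Lyz2, Lyz1, S100a8, S100a9, Tyrobp, Clec9a, C1qa, C1qb and Elane) had no count in any of the 8 libraries. The summed level of the 25 was 132 to 160 CPM in Aim2-/- and 128 to 150 CPM in WT, most of it from Ctss, a protease gene that T cells express too (85.9 to 112 CPM).

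Ppox, the penultimate enzyme of haem synthesis, was 15.2, 14.3, 15.9 and 13.2 CPM in Aim2-/- and 27.9, 24.8, 26.4 and 21.8 CPM in WT (-0.78, SE 0.10, adjusted p = 0.014). Dusp12, a dual-specificity phosphatase, was higher at 16.9 to 20.2 CPM against 10.3 to 12.7 CPM (0.70, SE 0.10, adjusted p = 0.026). Its neighbour on the opposite strand, Gm9929, was lower at 0.22 to 0.321 CPM against 0.89 to 1.29 CPM, and the sources used here do not state that strand was used in counting, so such overlapping partners may share reads. Adamts4, a protease of cartilage proteoglycans, was lower at 0.0357 to 0.201 CPM against 0.641 to 1.35 CPM (-2.81, SE 0.42, adjusted p = 0.039).

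Uhmk1, an RNA-processing kinase and the most precisely measured of these genes, was 153, 144, 144 and 144 CPM in Aim2-/- and 184, 177, 180 and 186 CPM in WT, a 1.24-fold difference (-0.31, SE 0.04, adjusted p = 0.026). None of the 8 fits with 1 library left out kept Uhmk1, Dusp12 or Enah past the threshold, and Ppox passed in 1 of them (without WT library 4). Gm9929, Adamts4 and Gm38188, tested in 4 of those fits, passed in 0. Farther along the chromosome, Enah, an actin regulator 8.43 Mb away, was 0.416 to 0.882 CPM against 1.82 to 2.28 CPM (-1.68, SE 0.25, adjusted p = 0.043), and the antisense transcript Gm38188 at 17.6 Mb was 0.107 to 0.201 CPM against 0.57 to 0.668 CPM (-2.06, SE 0.29, adjusted p = 0.027).

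Wdfy1, an endosomal adaptor with a lipid-binding FYVE domain, was the changed gene of chromosome 1 far from Aim2. It was 5.64, 5.61, 3.89 and 5.51 CPM in Aim2-/- and 14.7, 17.3, 14.7 and 16.5 CPM in WT, a 3.06-fold lower level that passed in all 8 fits with a library left out (-1.61, SE 0.14, adjusted p = 0.0013). In Tn the same gene was 9.03 to 10.8 CPM against 11.2 to 14.8 CPM (-0.40, SE 0.12, adjusted p = 0.39). The genotype effect differed between the states by -1.20 on the log2 scale (SE 0.19, adjusted p = 0.035 for the interaction over 16 libraries).

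A second set of changed genes belonged to tandem copies of nearly identical sequence. In Dynlt1b, which encodes a light chain of the dynein motor (chr17:6430112-6436296, + strand, GRCm38), levels were 18.1, 18.4, 16.2 and 17.6 CPM in Aim2-/- and 3.85, 3.64, 5.16 and 3.9 CPM in WT (log2 fold change 2.09, SE 0.13, adjusted p = 0.00013). The copies Dynlt1a, Dynlt1c and Dynlt1f have coding sequences of the same length, 339 bases, that differ from that of Dynlt1b at 1 base. The stretch of 51 bases that holds this base, as long as a sequencing read, is shown to let a reader see how little sets a read from Dynlt1b apart. Letters are in the reading direction from base 1 of the start codon, taken from the GENCODE M21 transcripts, and the capital marks the base that differs from Dynlt1b (A21C).
Dynlt1b: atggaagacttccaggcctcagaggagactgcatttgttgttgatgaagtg
Dynlt1a: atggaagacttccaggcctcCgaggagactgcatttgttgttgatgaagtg
Dynlt1c: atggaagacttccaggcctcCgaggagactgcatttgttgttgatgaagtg
Dynlt1f: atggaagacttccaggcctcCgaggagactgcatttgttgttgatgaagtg

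Of the 51-base windows of Dynlt1b transcripts, 83.2% occurred in another gene, so its counts depended on how reads were divided. A sum over copies is free of the division among those copies, but not of that with genes outside the sum. The windows of Dynlt1b occurred in 4 other genes, of which the sum holds Dynlt1a, Dynlt1c and Dynlt1f. The sums below also leave out genes with shared windows, such as Olfr648 for Tmem181, Gm14109 for Tmem254, and Btnl4 and Ccar1 for Entpd4. The sum over the 4 Dynlt1 copies was 47.9, 48.6, 47.5 and 46.8 CPM in Aim2-/- and 34.6, 33.5, 31.2 and 30.4 CPM in WT, without overlap and with a ratio of means of 1.47. Dynlt1a, Dynlt1c and Dynlt1f overlapped between genotypes (log2 fold changes 0.04, 0.35 and 0.08, adjusted p = 1.0 for each), so the excess stood in the Dynlt1b column.

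Next to Dynlt1b, the pseudogene Tmem181b-ps was 9.27, 9.57, 11.8 and 11.2 CPM in Aim2-/- and 2.63, 2.28, 3.21 and 3.9 CPM in WT (1.80, SE 0.18, adjusted p = 0.0032). In Tn the gap was wider, 17.5 to 24.0 CPM against 0.17 to 0.317 CPM, and the interaction of -4.66 (SE 0.29, adjusted p = 3.1e-07) had the smallest p of the 3 that passed. Of its windows, 49.2% were shared, chiefly with Tmem181a, which overlapped between genotypes in the cultures (17.9 to 21.7 CPM against 18.8 to 23.0 CPM) and lay apart in Tn (18.8 to 28.6 CPM against 14.2 to 18.2 CPM, log2 fold change 0.61, adjusted p = 0.25). The sum over the Tmem181 copies was 27.4 to 30.9 CPM against 22.7 to 26.2 CPM in the cultures, a ratio of 1.22, and 45.5 ± 6.47 CPM against 16.2 ± 1.92 CPM (SD, n = 4) in Tn, a ratio of 2.8 without overlap, so the gap between states was much smaller on the sum than in the Tmem181b-ps column.

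On chromosome 14, Tmem254b and Tmem254c, which encode a small membrane protein, rose together. Tmem254c was 48.7, 49.8, 35.7 and 38.5 CPM in Aim2-/- and 17.7, 13.4, 16.2 and 8.83 CPM in WT (1.62, SE 0.21, adjusted p = 0.018), and Tmem254b was 20.5 to 28.0 CPM against 5.52 to 10.8 CPM (1.48, SE 0.20, adjusted p = 0.022). Every 51-base window of both occurs in another gene. The sum with Tmem254a was 80.4, 73.6, 64.0 and 63.7 CPM in Aim2-/- and 26.5, 25.2, 23.3 and 20.9 CPM in WT, a ratio of 2.94. Each gene passed in 2 of the 8 fits with a library left out, Tmem254c in those without WT library 1 or 4 and Tmem254b in those without WT library 3 or 4.

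The copies are alike up to their start sites as well. A stretch of 100 bases just before the start of Tmem254c is shown because the same letters stand before all 3 genes (RefSeq, GRCm38.p6, minus strand): chr14:26067446-26067545 for Tmem254c, chr14:26207062-26207161 for Tmem254b and chr14:25927693-25927792 for Tmem254a, with 0 differences. No base is in capitals because none differed.
Tmem254c: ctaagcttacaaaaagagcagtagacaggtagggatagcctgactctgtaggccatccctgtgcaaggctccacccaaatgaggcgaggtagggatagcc

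Farther along chromosome 14, Entpd4 and Entpd4b, Golgi and lysosomal nucleotidases whose windows were all shared, summed to 59.8, 56.4, 56.6 and 46.4 CPM in Aim2-/- and 34.3, 32.9, 30.4 and 30.3 CPM in WT. Fitted as separate entries, each was higher (0.79, SE 0.10, and 0.75, SE 0.09, adjusted p = 0.014 for both). These separate values depend on how reads were divided and do not show 2 independent changes. Each entry passed in 2 of the 8 fits with a library left out. Both did so without Aim2-/- library 4, Entpd4 also without WT library 1 and Entpd4b without WT library 2. The overlapping gene Gm16867 was 7.04, 9.35, 10.6 and 2.31 CPM in Aim2-/-, while WT library 1 had 0.0337 CPM and the other WT libraries had none, at least 75.4-fold higher (adjusted p = 0.002). Without WT library 1 its adjusted p was 0.079. With its copy Gm27177, the sum was 6.61 to 11.8 CPM against 0.24 to 0.506 CPM.

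Outside these segments, a few genes changed whose transcripts have little or no sequence in common with others in GENCODE M21. For Ide this holds only for the identifier that has an entry there. Ide, the insulin-degrading protease on chromosome 19, was 171, 175, 183 and 186 CPM in Aim2-/- and 87.4, 88.0, 94.9 and 97.5 CPM in WT under each identifier. It was 1.95-fold higher with an SE of 0.06 on a log2 difference of 0.96 (adjusted p = 0.00013). Both identifiers held the same counts in every library, and the expected counts were not whole numbers in 3 of the 8. The second identifier has no entry in that annotation, so sequence shared between the identifiers was not seen. Whether reads were divided between them was not tested, and the CPM under each may then be a part of the signal. With the genes that have an entry, 0.0% of the windows of the first identifier were shared. Kif11, a mitotic kinesin and neighbour of Ide, did not pass and lay at 140 to 155 CPM against 150 to 155 CPM (-0.04, adjusted p = 1.0).

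Rab4a, a small GTPase that returns receptors from early endosomes to the surface, was 0.832, 0.428, 0.436 and 0.294 CPM in Aim2-/- and 5.03, 4.85, 4.2 and 4.64 CPM in WT (-3.23, SE 0.27, adjusted p = 0.0013). Efcab7, a calcium-binding protein of the primary cilium, was 1.97, 1.32, 1.94 and 1.91 CPM against 5.43, 5.97, 5.73 and 6.2 CPM (-1.71, SE 0.16, adjusted p = 0.0022). Both passed in all 8 fits with a library left out. Fam20c, a kinase of secreted proteins, was 0.0, 0.0714, 0.268 and 0.22 CPM against 2.13, 2.48, 2.25 and 3.52 CPM (-4.14, SE 0.53, adjusted p = 0.016), and lost the call without any one of Aim2-/- libraries 2, 3 or 4 (adjusted p up to 0.1).

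Mid1, a ubiquitin ligase gene that crosses the edge of the pseudoautosomal region in laboratory mice, showed the widest difference among the well-expressed genes. It was 102, 115, 75.8 and 56.0 CPM in Aim2-/- and 5.1, 6.64, 7.59 and 7.75 CPM in WT, 12.9-fold higher (3.69, SE 0.25, adjusted p = 0.00036). The transcript G530011O06Rik, inside Mid1 on the other strand, followed it at 1.1 to 3.67 CPM against 0.202 to 0.26 CPM (3.36, SE 0.39, adjusted p = 0.01), and lost the call without WT library 1, 2 or 3 (adjusted p up to 0.081). Gm15726, a further transcript of this locus, was 1.06, 0.964, 0.972 and 0.588 CPM against 0.0, 0.0288, 0.15 and 0.111 CPM (3.56, SE 0.56, adjusted p = 0.052). Of the windows of Mid1, 14.9% were shared with other loci.

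On chromosome 6 the neighbours Slc41a3, a magnesium transporter, and Aldh1l1, a folate enzyme, were both higher. Slc41a3 was 7.76, 6.82, 4.43 and 3.82 CPM in Aim2-/- and 1.92, 1.64, 1.92 and 1.52 CPM in WT (1.70, SE 0.25, adjusted p = 0.031), and Aldh1l1 was 1.25 to 2.53 CPM against 0.185 to 0.574 CPM (2.58, SE 0.37, adjusted p = 0.031). Each passed in 1 of the 8 fits with a library left out, which for Slc41a3 was the fit without Aim2-/- library 4 and for Aldh1l1 that without WT library 1.

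The genes next in order of p, after Ifi206, Gm15726 and Gm27177, were given no call. They included Srp54a, a subunit of the signal recognition particle listed at 2 loci (24.3, 21.3, 19.8 and 17.5 CPM against 29.7, 36.6, 34.9 and 45.6 CPM at the one, -0.82, adjusted p = 0.096, and 109 to 142 CPM against 163 to 199 CPM at the other, -0.50, adjusted p = 0.12), Lyplal1 (0.469 to 0.845 CPM against 0.0 to 0.135 CPM, adjusted p = 0.1) and Ints7 (118 to 130 CPM against 148 to 168 CPM, adjusted p = 0.1). Atf6, a sensor of endoplasmic reticulum stress, was 13.1 to 17.8 CPM against 22.7 to 27.4 CPM (adjusted p = 0.14), H2-Q6, a class I-like antigen, 42.5 to 52.7 CPM against 29.8 to 36.6 CPM (adjusted p = 0.14) and Smyd2 99.4 to 115 CPM against 74.0 to 88.4 CPM (adjusted p = 0.15). Lyplal1, Ints7, Atf6 and Smyd2 lie on chromosome 1, from 2.48 to 18.1 Mb from Aim2.

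The same genes were then read in the naive libraries, which share no library with the cultures. There 31 of 13441 genes passed the test (0.231%) and the genotypes did not overlap in 7.02% (3.82% with Aim2-/- higher and 3.2% with it lower). Of the 28 distinct genes, 23 could be tested in Tn. All 23 had the same sign there, against 64.1% of the 12119 genes tested in both states, and 14 passed the threshold in both. Ide was 46.9 to 47.9 CPM against 22.8 to 24.9 CPM in Tn, with the same log2 difference of 0.96, and Aim2 and Rab4a were likewise close (-2.24 and -3.00). The other 9 were not past the threshold in Tn, among them Mid1 (1.98, SE 0.50, adjusted p = 0.34) and Efcab7 (-0.27, SE 0.22, adjusted p = 0.69). The difference between states passed its own test for Wdfy1 and Tmem181b-ps among these genes, and for Ifi211 (-9.09, SE 1.10, adjusted p = 0.0046), 3 of 14669 genes in all (0.0205%); an unadjusted p under 0.05 was found for 3.49%.

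**Figure D3:**
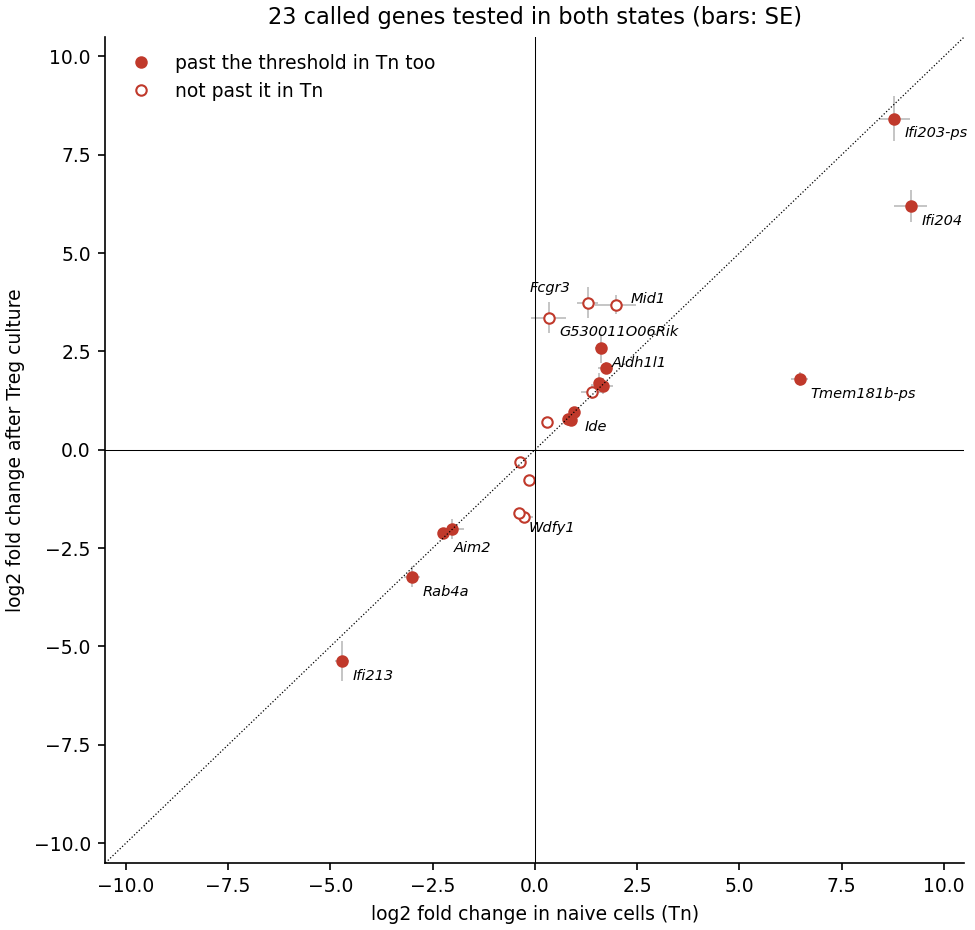
Log2 fold change (Aim2-/- over WT) after Treg culture against that in naive cells for the 23 distinct genes past the threshold in culture and tested in both states, with standard errors as bars and the line of equality dotted. All points lie in the quadrants of equal sign; the fitted values of Ifi204, Ifi203-ps and Ifi213 depend on how near-zero counts are treated.

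No transcription factor or receptor named here for its part in CD4 T cell fates passed the test. Foxp3 was 562, 520, 327 and 285 CPM in Aim2-/- and 560, 572, 493 and 279 CPM in WT (log2 fold change -0.17, SE 0.28, adjusted p = 1.0). The range within each genotype spanned nearly the whole range of both, and the libraries low in Foxp3 were those on the high side of the first component. Il2ra was 1290 to 1450 CPM against 1380 to 1510 CPM (-0.08, SE 0.05), Ctla4 54.5 to 82.1 CPM against 57.5 to 83.9 CPM (-0.09, SE 0.14) and Ikzf2, which encodes Helios, 4.58 to 11.6 CPM against 3.39 to 14.7 CPM (0.12, SE 0.49). Their adjusted p was 1.0 in each case.

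Tbx21, the factor of Th1 cells, varied widely among the libraries, at 19.4, 74.8, 133 and 136 CPM in Aim2-/- and 14.7, 49.6, 18.7 and 127 CPM in WT (0.79, SE 0.76, adjusted p = 1.0). Ifng, its target cytokine, had 2.42, 6.53, 13.5 and 25.1 CPM against 1.15, 4.47, 0.93 and 20.8 CPM, and Ly6a 69.5, 277, 718 and 680 CPM against 43.8, 166, 50.3 and 725 CPM. Gata3, the Th2 factor, was 6.21 to 17.7 CPM against 7.02 to 16.8 CPM (-0.02, SE 0.36). Over replicates 1 and 2 the log2 fold change of Tbx21 was 0.55 and over replicates 3 and 4 it was 0.89, and for Foxp3 the values were -0.07 and -0.33. The SE of Foxp3, Tbx21 and Gata3, between 0.28 and 0.76, exceeded the median SE of 0.119 over all genes and of 0.0644 over the 2277 genes above 100 CPM, so differences smaller than this spread were not detectable in them.

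**Figure D4:**
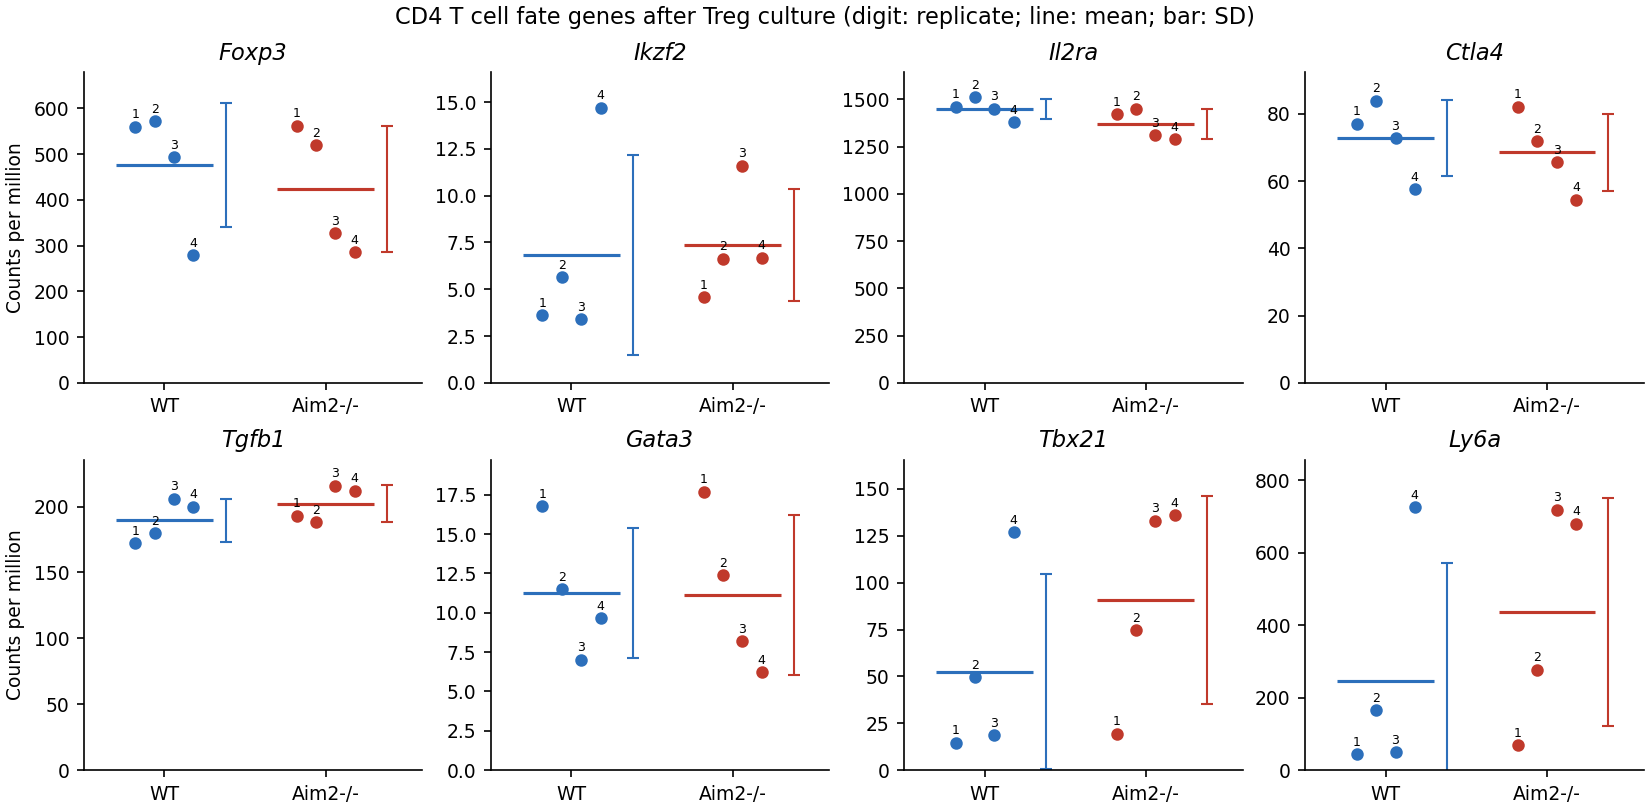
CPM of 7 CD4 T cell fate genes and Ly6a in the 4 WT (blue) and 4 Aim2-/- (red) libraries after Treg culture, with the replicate number above each point, the mean as a line and the SD as a bar. In every panel the genotypes overlap, and Aim2-/- 3 and 4 and WT 4 lie together in Foxp3, Tbx21 and Ly6a.

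Tgfb1 was 188 to 216 CPM in Aim2-/- and 172 to 206 CPM in WT (0.10, SE 0.07, adjusted p = 1.0). The suppressive cytokine gene Il10 was too low to test, at 0.113 to 0.536 CPM against 0.0675 to 0.556 CPM. Of the partners of AIM2, Pycard was 42.3 to 52.1 CPM against 42.1 to 50.4 CPM (0.04, SE 0.08), Casp1 0.416 to 1.07 CPM against 0.304 to 0.742 CPM (0.64, SE 0.39), and the caspase-1 substrate Il18 was at or near 0 in both genotypes. Cpt1a, which admits long-chain fatty acids to mitochondria, had a log2 fold change of -0.05 (SE 0.14) and overlapped between genotypes.

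Gene lists were read by counts and medians, set beside all 13221 genes, whose median log2 fold change was 0.0 and of which 50.1% were above 0. The lists covered 822 genes tested, and 5 of these passed the test, the 4 PYHIN genes and Fcgr3. Over all genes 0.219% passed, so a list of this size without a call says little about its members. On the Treg identity list, 16 of 33 genes were above 0 and the median was -0.015. Gpr83, a receptor enriched in Treg cells, had the smallest p among them, at 51.3, 51.4, 55.2 and 49.2 CPM against 56.9, 59.7, 64.8 and 63.3 CPM (-0.24, SE 0.06, adjusted p = 0.79). Regulators of the Treg lineage had a median of -0.049 (12 of 43 above 0), T helper factors 0.015 (13 of 25), effector cytokines 0.096 (18 of 29), the IL-2 and STAT5 pathway -0.015 (9 of 21), the TGF-beta pathway -0.049 (5 of 21) and T cell receptor signalling 0.023 (33 of 53). None of their members passed the test. In the 5 libraries on the low side of the first component the medians of the TGF-beta list, the Treg regulators and the T helper factors were 0.045, 0.014 and 0.12.

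Naive T cell genes had a median of -0.070 (9 of 30 above 0), which became 0.057 in those 5 libraries. Dapl1, a marker of resting T cells, went against its list at 8.59, 7.0, 5.53 and 8.82 CPM in Aim2-/- and 4.49, 3.92, 3.45 and 4.64 CPM in WT, without overlap (0.86, SE 0.18, adjusted p = 0.24). It passed with DESeq2 (adjusted p = 0.0028).

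**Figure D5:**
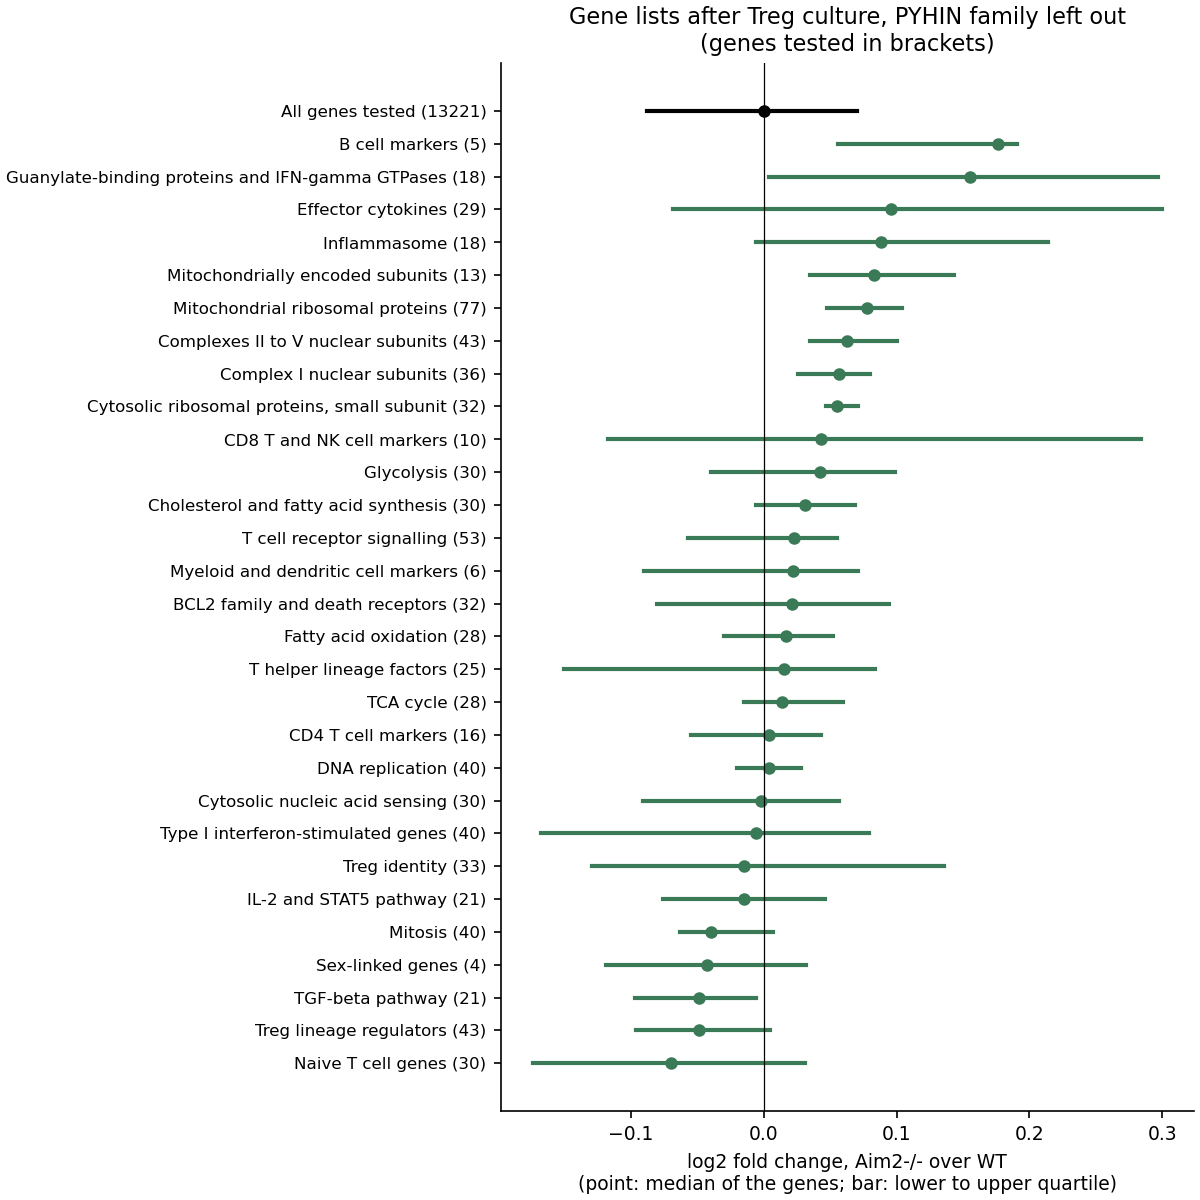
Median (point) and quartiles (bar) of the log2 fold change (Aim2-/- over WT) over the genes tested on each list plotted, all with 3 or more, beside all 13221 genes in black; the PYHIN family, whose median was -1.68, is left out. Medians lie between -0.070 and 0.176, and the narrow bars of the respiratory and ribosomal lists lie to the right of 0.

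The lists of mitochondrial and ribosomal genes were narrow and displaced to one side. Of the nuclear subunits of respiratory complex I, 33 of 36 lay above 0 (median 0.057 on the log2 scale), and of those of complexes II to V 40 of 43 (median 0.063). Mitochondrial ribosomal proteins gave 73 of 77 and 0.078, small-subunit cytosolic ribosomal proteins 32 of 32 and 0.055, and mitochondrially encoded subunits 12 of 13 and 0.083. No member passed the test. In 7 of the 32 cytosolic ribosomal genes (21.9%) the genotypes did not overlap, all with Aim2-/- higher, against 2.23% of all genes. On the other lists of this group the share was 0.0% to 2.78%. On the complex I list only Ndufv1, a catalytic subunit, was without overlap, 1 of 36, and it had the smallest p there. It was at 117, 116, 115 and 117 CPM against 110, 111, 109 and 108 CPM (0.09, SE 0.04, adjusted p = 1.0). In the 5 libraries on the low side of the first component the medians were 0.018 for complex I, 0.017 for complexes II to V, 0.010 for mitochondrial ribosomal proteins, 0.113 for mitochondrially encoded subunits and 0.064 for the cytosolic ribosomal proteins. The mean levels of the lists overlapped between genotypes.

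Among other metabolic genes, glycolysis had a median of 0.042 (18 of 30 above 0), the TCA cycle 0.014 (19 of 28), fatty acid oxidation 0.017 (17 of 28) and sterol and fatty acid synthesis 0.031 (21 of 30). The metabolic gene with the smallest p was Fh1, fumarate hydratase, at 106, 103, 112 and 117 CPM in Aim2-/- and 84.3, 90.9, 89.0 and 94.0 CPM in WT (0.29, SE 0.06, adjusted p = 0.22). Fh1 lies 2.13 Mb from Aim2. DNA replication genes had a median of 0.004 (23 of 40), mitosis genes -0.040 (12 of 40) and BCL2 family and death receptor genes 0.021 (19 of 32). Mki67 was 1150 to 1280 CPM against 1240 to 1490 CPM (-0.15, SE 0.06, adjusted p = 1.0).

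No gene passed the test on the other innate immune lists, which are short beside the 0.219% of all genes that passed. Inflammasome genes had a median of 0.088 (13 of 18 above 0), other cytosolic nucleic acid sensing genes -0.002 (15 of 30), type I interferon-stimulated genes -0.006 (18 of 40) and guanylate-binding proteins and related GTPases 0.155 (13 of 18). Il1a, which encodes an IL-1 cytokine, was 7.07 to 13.4 CPM against 3.93 to 7.86 CPM (0.69, SE 0.24, adjusted p = 1.0). Iigp1, an interferon-gamma-inducible GTPase, followed the first component at 92.5, 253, 403 and 400 CPM against 69.1, 154, 69.4 and 364 CPM (0.81, SE 0.62, adjusted p = 1.0).

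The summed levels of marker lists of other cells overlapped between genotypes. B cell markers summed to 144 to 176 CPM in Aim2-/- and 129 to 154 CPM in WT, mostly from Ighm, with Ms4a1 and Iglc2 at 0 in all 8 libraries, and 4 of the 5 tested were above 0 (median 0.176). Markers of CD8 T and NK cells summed to 30.8 to 54.4 CPM against 23.5 to 58.9 CPM (median 0.043 over 10 genes) and erythroid and platelet markers to 1.01 to 1.4 CPM against 0.81 to 1.56 CPM (Itga2b the one tested, -0.15). Of the myeloid markers 6 were tested, with a median of 0.022, and 1 of them, Fcgr3, passed the test (log2 fold change 3.74). The mean level of those 6 did not overlap between genotypes, at 0.042 to 0.567 in Aim2-/- and -0.423 to -0.094 in WT on the log2 scale centred on each gene's mean. Fcgr3 was the only 1 of the 6 whose own levels did not overlap. How far the mean level rested on Fcgr3 was not tested. The CD4 T cell markers had a median of 0.004. The sex-linked genes (4 tested, median -0.043) summed to 156 to 182 CPM against 153 to 177 CPM.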

How the data were processed

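RNA of CD4+ T cells was sequenced as single-end reads from stranded mRNA libraries. The authors mapped them to GRCm38 with STAR and deposited expected counts from RSEM for 53090 genes per library, neither normalized nor filtered. Replicates were not pooled; tool versions and the strand setting are not given in the sources used here. Expected counts were rounded to whole numbers. A gene was tested where 4 or more of the 8 libraries held 10 or more counts, with edgeR 4.0.16 (R 4.3.3; TMM, robust two-sided quasi-likelihood F test, Benjamini-Hochberg adjustment over the genes tested, threshold 0.05), after the script was tested on simulated data. SE is the log2 fold change divided by the square root of F. Where no library of a group exceeded 3 counts, the fold is a bound taken against 3 counts per library. Positions are from GENCODE M21 on GRCm38 (98.9% of genes matched) and promoter letters from RefSeq. Shared sequence is the share of a gene's 51-base transcript windows found in another gene of GENCODE M21. The paper names an earlier GENCODE release for RSEM, so the sharing that applied in counting may differ. A list's mean level is the mean log2 CPM (prior count 2) of its tested genes, centred on each gene's mean.

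The text names each gene past the threshold, Aim2, the 10 genes of next smallest p, 14 fixed genes, and members of lists with the smallest p or most extreme change. The 32 gene lists and the genes named were chosen with earlier results of these data known; the other PYHIN genes, the copies, Ly6a, Kif11, Ctss and Ighm were added after their values were seen. Some named items are not reported here. Alternatives were DESeq2 1.42.0, limma-voom 3.58.1, RLE factors, other filters on low counts, a joint fit of the 16 libraries, a block for the replicate number, a term for replicates 1 and 2 against 3 and 4, either pair alone, a GC and length correction (splines with 5 degrees of freedom), each library left out and, added after seeing the data, the 5 libraries on the low side of the first principal component. No pair of libraries of a group agreed within sampling noise.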

Additional observations from a re-analysis of the deposited data

Results flagged for a closer look

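The genotype effect differed between Treg culture and naive cells for 3 genes, by edgeR's test of the interaction over 16 libraries. It was -9.09 on the log2 scale for Ifi211 (adjusted p = 0.0046), -4.66 for Tmem181b-ps (adjusted p = 3.1e-07) and -1.20 for Wdfy1 (adjusted p = 0.035). The log2 fold change of Ifi211 was -4.49 after culture (adjusted p = 0.33) and 4.61 in Tn (adjusted p = 1.1e-05), that of Tmem181b-ps 1.80 and 6.47, past the threshold in both states, and that of Wdfy1 -1.61 and -0.40, past it after culture and not in Tn. Tmem181b-ps shares 49.2% of its windows, chiefly with Tmem181a, and the sum over the Tmem181 copies had a ratio of Aim2-/- to WT of 1.22 after culture and 2.8 in Tn.

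Among the changed and fixed genes, 1 library lay far from the other 3 of its group (a gap over Dixon's 95% critical value) in 9 of 106 groups, or 8.49%; chance gives about 1 in 20. After culture these were Wdfy1 at 3.89 CPM in Aim2-/- library 3, Efcab7 at 1.32 CPM in Aim2-/- library 2, Entpd4 at 27.7 CPM in Aim2-/- library 4, Uhmk1 at 153 CPM in Aim2-/- library 1 and Dynlt1b at 5.16 CPM in WT library 3. In Tn they were Aim2 at 9.41 CPM in Aim2-/- library 1, Dusp12 at 16.4 CPM in Aim2-/- library 3 and at 13.9 CPM in WT library 1, and Ide at 22.8 CPM in WT library 1. In none of the 5 genes named after culture did that library bring the genotypes into overlap. This outcome was fixed in advance, since the genotypes were apart in all 29 changed genes.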

How the results depend on the processing

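The count of 29 changed genes in the cultures was 52 with DESeq2, 17 with at least 10 counts in every library, 6 with replicates 3 and 4 only and 15 with the 5 libraries on the low side of the first principal component, and 10 to 17 with each library left out. Of the 29, 24 were tested in each of those last fits, since a gene counted in 1 genotype needs all 4 of its libraries to pass the filter. Limma-voom gave 26, RLE factors 29, no filter 37, all 16 libraries 38, the term for replicates 1 and 2 against 3 and 4 gave 38, replicates 1 and 2 only 25 and the GC and length correction 27. Every one of the 29 kept its sign in each fit in which it was tested, and Aim2 passed in all of them. In Tn, 31 genes changed: 128 with DESeq2, 18 with at least 10 counts in every library, 47 with no filter, 51 with the term for the replicate split, 493 with replicates 3 and 4 only and 17 to 28 with each library left out. The interaction gave 3 genes, 10 with DESeq2, 0 with at least 10 counts in every library (by edgeR, 369 at an unadjusted p under 0.05), and 2 to 5 with each library left out. The cause was not tested. With the replicate number as a block, 41 genes changed in the cultures (25 of the 29 among them; Mid1, Tmem254b, Tmem254c and Gm38188 were lost), 29 in Tn and 1 for the interaction. The labels do not say whether the numbers pair the samples, and the correlations did not settle it. Deviations of same-numbered libraries correlated at -0.02 to 0.487 in the cultures (mean 0.296) and 0.029 to 0.346 in Tn (mean 0.164). Unlike numbers could correlate as well, as did Aim2-/- 3 and WT 4 in the cultures (0.455). The block gave 1104 genes at an unadjusted p under 0.05 by edgeR in the cultures, against 305 without it. With GC and length correction added, the block gave 42. Median shifts of the lists moved by more than the spread between libraries in 23 cases and by less in 649.

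Depth set which genes were tested: those under 10 counts in 5 or more libraries were not. Of the 29, 15 had a mean under 10 CPM in both genotypes. Tmem254b, Tmem254c, Entpd4 and Entpd4b hold no 51-base stretch of their own, so their separate values depend on how reads were divided.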
